A study of Mus musculus with 15 samples.

Results

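The T cell receptor is assembled with the CD3 chains, and signals through a short chain of kinases and an adaptor. Its genes were followed here in gut CD4 T cells of mice on a high-fat diet. The set held 10 genes, of 34816 gene names on the array: the receptor chains Cd3d, Cd3e, Cd3g and Cd247, the coreceptor Cd4, the kinases Lck and Zap70, the adaptor Lat, and the surface proteins Cd5 and Thy1. They were chosen by name from the array's gene annotation, and every probe carrying such a name was taken, 13 probes of 55681. The samples were male mouse CD4 T cells, isolated by flow cytometry out of lamina propria leukocytes of the small intestine, and the labels give no other gate. The groups were HFD d10 and HFD d30, from mice 10 and 30 days into a high-fat diet, and control, from mice on normal chow, with 5 arrays each. The series' design text says that the diet was meant to change the microbiota. The labels give neither the strain and age of the mice nor the day on which control cells were taken, and they do not say whether each array stands for a different mouse or a pool. The p-values therefore rest on how much these samples vary, a spread that may be technical, and days on the diet cannot be told apart from age or time in the experiment.

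As background, the receptor itself has almost no tail inside the cell. The CD3 gamma, delta, epsilon and zeta chains (Cd3g, Cd3d, Cd3e and Cd247) carry the signal on immunoreceptor tyrosine-based activation motifs. When CD4 binds the same major histocompatibility molecule as the receptor, it brings the Src family kinase LCK, which phosphorylates these motifs. The kinase ZAP-70 docks on the phosphorylated zeta chain and phosphorylates LAT, a membrane scaffold on which the enzymes of calcium and Ras signalling assemble. CD5 dampens the signal, and its surface level is known to follow the strength of that signal during thymic selection. THY1 is a lipid-anchored surface protein carried by practically every mouse T cell and also by some innate lymphoid and stromal cells. CD4 T cells of the lamina propria are mostly antigen-experienced, and in humans such cells are known to respond weakly to stimulation of the receptor.

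Each probe is a 60-base stretch of the transcript. Coordinates are those of build mm9 as given with the array. The probes of Cd247 and Cd3d are shown because they lie on the activation motifs that the receptor signals with. Capitals mark the tyrosine codon through the leucine codon at each end of the motif, and both probes span an exon junction.
Cd247 probe, chr1:167786567-167787585, plus strand: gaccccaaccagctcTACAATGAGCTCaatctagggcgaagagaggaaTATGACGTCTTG
Cd3d probe, chr9:44794171-44794402, plus strand: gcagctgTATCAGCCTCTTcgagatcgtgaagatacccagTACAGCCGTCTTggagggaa
The search was for codon blocks of tyrosine, any 2 codons and leucine or isoleucine, with 6 to 8 codons between both blocks, read in a frame without a stop codon on the probe's own strand. Of all 55681 probes, 37 (0.0664%) held the motif, and 2 of the 13 probes of the set did. The probe of Lat is shown because it crosses a tyrosine site of the scaffold. Capitals mark a tyrosine codon, any codon and an asparagine codon, the order that the adaptor GRB2 and its relatives bind once the tyrosine is phosphorylated. Of all probes, 2.36% held it in an open frame.
Lat probe, chr7:133507719-133507778, minus strand: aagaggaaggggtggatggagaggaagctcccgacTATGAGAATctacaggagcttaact
Cd4 has a pair of probes that went different ways in these data, and the one from the coding part of the transcript is shown.
Cd4 probe from base 1242 of the transcript, chr6:124817706-124817765, minus strand: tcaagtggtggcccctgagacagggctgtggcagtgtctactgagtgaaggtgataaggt
The other Cd4 probe began at base 3035 of the same transcript, and 17 bases followed its polyadenylation signal AATAAA. That signal stood in 4 of the 13 probes of the set (Cd4, Cd3e, Lck and Thy1) and in 10.1% of all probes, read on the probe's strand. In the genome, the probes of Cd3g, Cd3d and Cd3e lay in a row on chromosome 9 (at 44777868, 44794171 and 44806828), and that of Thy1 on the same chromosome at 43856591.

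A level is the log2 processed signal of a probe minus the 75th percentile of its array, so it can be compared between arrays for a given probe but not between probes. Spots were called well above background by the scanner software, and the share of such spots was 58.5% ± 2.91 on HFD d10 arrays, 51.3% ± 5.48 on HFD d30 arrays and 63.8% ± 11.96 on control arrays (SD, n = 5 each). It was highest on control replicate 1 (82.0%) and lowest on HFD d30 replicate 3 (45.2%). Exact two-sided permutation tests of the share, adjusted over the 3 comparisons, gave p = 0.421 for HFD d10 against control, 0.0833 for HFD d30 against control and 0.0833 for HFD d30 against HFD d10. All 5 control arrays and HFD d10 replicates 1 to 3 were on slide 1, and HFD d10 replicates 4 and 5 with all 5 HFD d30 arrays on slide 2. No slide held both HFD d30 and control. The scan dates in the file headers split the arrays in the same way, so slide and scan cannot be told apart.

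The genes of the set were detected in nearly every sample. On all 15 arrays 9 of the 10 genes were well above background, and Cd247 on 14, the exception being an HFD d30 array. Over the whole array 11601 of 34816 genes were so on all 15. All genes of the set but Cd4 are also used by CD8 and gamma delta T cells, so their detection does not single out CD4 T cells. Genes on the marker lists of other cell types were detected too, and a listed gene need not be exclusive to its cell type. The cytotoxic proteases Gzmb and Gzma, the lymphoid genes Rora and Il7r and the B cell gene Cd22 were well above background on all 15 arrays. So were the antibody joining chain gene Jchain, the macrophage receptor gene Csf1r and the epithelial genes Pigr and Krt18. Xcr1, a chemokine receptor gene of dendritic cells, and Myh11, of smooth muscle, were so on 14, and the endothelial gene Pecam1 on 13. Cd8a, the coreceptor of cytotoxic T cells, was well above background on 4 HFD d10, 3 HFD d30 and 5 control arrays. The B cell gene Ms4a1 and the endothelial gene Cdh5 were so on 0 arrays. The summed level of each marker list (1 being the array's 75th percentile) ranged as follows. For 13 genes of CD8 T and NK cells it was 102 to 172 in HFD d10, 83.4 to 151 in HFD d30 and 47.0 to 235 in control. For 8 genes of gamma delta T and innate lymphoid cells it was 37.8 to 59.0 in HFD d10, 43.8 to 79.7 in HFD d30 and 8.16 to 79.7 in control. For 10 genes of B and plasma cells it was 32.3 to 61.3 in HFD d10, 38.1 to 70.5 in HFD d30 and 36.7 to 52.0 in control. For 12 macrophage and dendritic genes it was 8.83 to 16.4 in HFD d10, 11.4 to 29.2 in HFD d30 and 9.08 to 20.3 in control. For 12 epithelial genes it was 222 to 350 in HFD d10, 251 to 566 in HFD d30 and 233 to 322 in control, and for 11 stromal and endothelial genes 0.914 to 11.6 in HFD d10, 0.868 to 15.5 in HFD d30 and 5.09 to 14.8 in control. The ranges of the groups overlapped for every list. Such a sum follows mainly the brightest probes of its list, so it does not measure the share of a cell type. Over the 15 arrays Pigr had a mean level of 8.15, and Krt18, the next brightest epithelial gene, 0.29. In the B and plasma cell list Cd22 had 5.18 and Jchain, the next, 1.44. In HFD d30 minus control, 6 of 7 tested B and plasma cell genes were higher (median difference 0.54), 7 of 9 macrophage and dendritic genes (0.52), 4 of 10 CD8 T and NK genes (-0.23), 2 of 5 gamma delta T and innate lymphoid genes (-0.071), 4 of 10 epithelial genes (-0.21) and 0 of 4 stromal and endothelial genes (-1.05), 0 of them called by limma. These differences stand beside those of the set given below, and the part of other cells in the results below was not tested. In such bulk RNA, fewer cells of a type and less RNA per cell cannot be told apart.

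By group means, the order from high to low was HFD d30, HFD d10 and control for Cd4, Cd3d, Zap70, Lat, Cd5 and Thy1, and HFD d30, control and HFD d10 for Cd3e and Cd3g. It was HFD d10, HFD d30 and control for Lck, and control, HFD d10 and HFD d30 for Cd247. No neighbours in these orders differed beyond their spread by the test given below. The chains of the receptor complex differed little between the groups beside the spread of the arrays. Cd3d, which encodes the delta chain, had levels of 5.27, 4.57, 3.05, 5.46 and 4.47 on the HFD d10 arrays, 5.37, 4.02, 5.56, 3.78 and 5.22 on the HFD d30 arrays, and 2.09, 5.33, 5.92, 3.99 and 4.55 on the control arrays (replicates 1 to 5 in each). Cd3g, the gamma chain, had levels of 3.59, 2.89, 1.82, 3.74 and 3.16 in HFD d10, 3.84, 1.87, 3.39, 3.23 and 4.32 in HFD d30, and 1.41, 3.15, 4.39, 3.53 and 3.08 in control. For both genes the lowest and the highest array of all 15 were control replicates 1 and 3, so the diet groups lay inside the range of control. Cd3e, the epsilon chain, had levels of 0.63, 0.53, -0.68, -0.01 and 1.81 in HFD d10, 0.73, 1.86, 2.89, -0.51 and 0.96 in HFD d30, and -0.59, 1.38, 1.61, 1.49 and 1.77 in control. Control replicate 1 was low and the other 4 control arrays lay close together, above 4 of 5 HFD d10 arrays.

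Cd247, the zeta chain on which ZAP-70 docks, varied most. Its levels were 0.59, 0.33, 2.56, -3.76 and 3.41 in HFD d10, 2.88, 2.21, -2.99, 1.19 and -0.89 in HFD d30, and -2.51, 1.63, 3.01, 0.57 and 1.52 in control. The lowest array of each group was at -2.51 or below, and the range from HFD d10 replicate 4 to HFD d10 replicate 5 was 7.17 on the log2 scale. Its pooled SD within groups was 2.43, and 11.1% of the tested genes had a larger one. The other 9 genes had pooled SDs between 0.48 (Thy1) and 1.12 (Cd3d), and 63.0% to 93.1% of tested genes had a larger one than each of them. The means of Cd3d, Cd3g and Cd247 in the 3 groups differed by less than the SD within groups.

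Cd4, the coreceptor, was read from the brighter of its probes, which had levels of 4.11, 3.05, 3.61, 3.96 and 3.65 in HFD d10, 4.59, 3.92, 5.17, 3.26 and 3.64 in HFD d30, and 2.47, 3.39, 3.96, 3.57 and 3.16 in control. HFD d30 replicates 1 and 3 stood above all control arrays, and the other 3 lay among them. Lck, the kinase that CD4 carries, had levels of 2.68, 1.97, 3.53, 3.71 and 2.29 in HFD d10, 1.57, 1.30, 4.00, 2.96 and 2.38 in HFD d30, and 1.70, 1.42, 4.41, 1.82 and 1.25 in control. Control replicate 3 was the highest array of all, while the other 4 control arrays lay below every HFD d10 array. Zap70 had levels of 4.47, 3.52, 4.53, 5.51 and 4.34 in HFD d10, 4.41, 5.52, 5.71, 3.25 and 4.96 in HFD d30, and 2.27, 4.01, 4.37, 4.88 and 4.48 in control. The 3 groups overlapped broadly, with control replicate 1 alone at the bottom.

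Lat, the scaffold that ZAP-70 phosphorylates, was nearly constant in HFD d10 and spread in the other groups. Its levels were 4.16, 4.46, 4.28, 4.34 and 4.40 in HFD d10, 4.99, 5.41, 5.84, 4.00 and 5.00 in HFD d30, and 3.11, 4.80, 4.86, 4.20 and 4.45 in control. In HFD d30, 4 of 5 arrays stood above all control arrays and above all HFD d10 arrays, and replicate 4 stood below all HFD d10 arrays. Cd5 had levels of 2.11, 1.69, 0.86, 2.89 and 2.37 in HFD d10, 3.16, 2.93, 4.27, 2.02 and 2.67 in HFD d30, and 0.02, 1.41, 2.69, 0.59 and 2.89 in control. Every HFD d30 array was above the control mean and the HFD d10 mean, though control replicates 3 and 5 reached into the HFD d30 range. Thy1 had levels of 5.26, 4.21, 4.82, 5.11 and 5.50 in HFD d10, 5.36, 5.52, 5.42, 4.97 and 5.71 in HFD d30, and 3.79, 5.01, 5.18, 4.01 and 4.43 in control. The HFD d30 arrays lay closest to each other, with an SD of 0.27, and 4 of 5 stood above every control array.

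**Figure D1:**
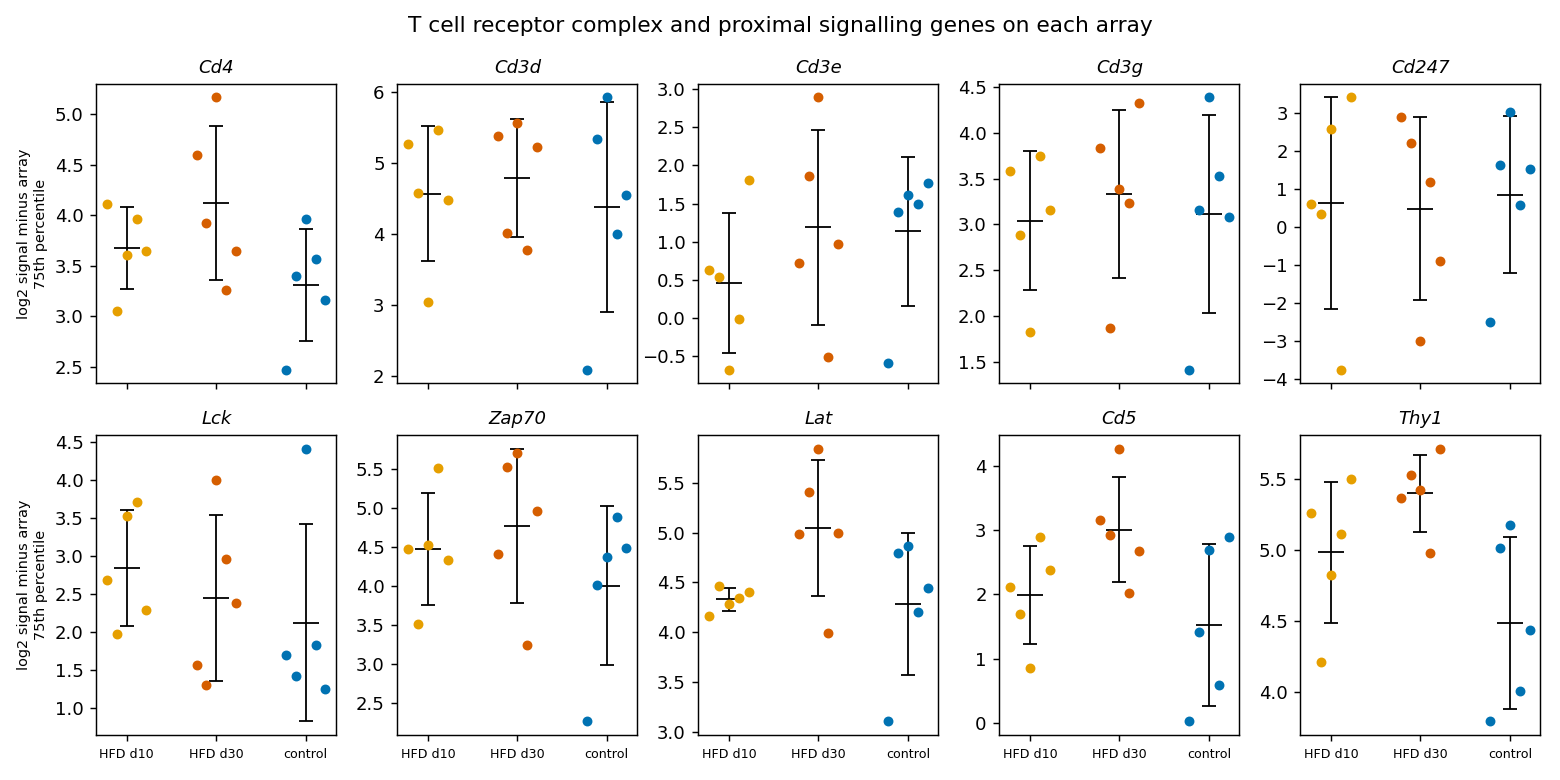
Level of each of the 10 genes on every array, as log2 signal minus the array's 75th percentile (y axis, own scale per gene), by group (x axis). Points are arrays, the long bar is the group mean and the whiskers 1 SD (n = 5). No gene separates the groups, and Thy1 in HFD d30 has the tightest cluster above most control arrays, with 4 of 5 above the highest.

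HFD d10 was set against control to ask how the cells differed early on the diet. None of the 10 genes passed the test. Thy1 had the smallest p, with a mean of 4.98 ± 0.50 in HFD d10 and 4.48 ± 0.61 in control (SD, n = 5 each), a log2 difference of 0.50 (95% interval -0.17 to 1.17; limma, unadjusted p = 0.136, adjusted p = 0.9999). Lck had the largest difference upward, 0.71 (SE 0.64), and Cd3e the largest downward, -0.68 (SE 0.67), each about the size of its error. The difference was 0.47 for Zap70, 0.47 for Cd5, 0.37 for Cd4, 0.19 for Cd3d, 0.05 for Lat, -0.07 for Cd3g and -0.22 for Cd247. Of the 10 genes 7 had a higher mean in HFD d10 and 3 a lower one, where 49.9% of all tested genes were higher, and the median difference was 0.28, against -0.0017 over all tested genes. By limma 0 genes of the set had an adjusted p under 0.05, and of the 25997 genes tested 0 had (0%). At an unadjusted p under 0.05 there were 0 of 10 in the set and 673 of 25997 over all (2.59%). The groups were free of overlap for 0 of the 10 genes, where 0.419% of all genes had no overlap.

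HFD d30 was set against control to ask how the cells differed later on the diet. Thy1 and Cd5 stood highest relative to control, followed by Cd4, Zap70 and Lat, while the CD3 chains and Lck lay nearer to control. The places of Cd4 and Zap70 hold for their brighter probes, as their other probes had -0.38 and 0.27. Thy1 averaged 5.40 ± 0.27 in HFD d30 and 4.48 ± 0.61 in control (SD, n = 5 each), a log2 difference of 0.91 (95% interval 0.24 to 1.58, or 1.88-fold; limma, unadjusted p = 0.0107). Cd5 averaged 3.01 ± 0.82 in HFD d30 and 1.52 ± 1.26 in control, a difference of 1.49 (95% interval 0.22 to 2.76, or 2.81-fold; limma, unadjusted p = 0.0240). With slide as a block the differences were 0.37 for Thy1 and 0.41 for Cd5, and with the share of detected spots as a covariate 0.50 and 0.29. Neither Thy1 nor Cd5 passed after adjustment over all genes (limma, adjusted p = 0.927 for both), and Thy1 ranked 260 of 25997 genes by p. The share of genes with an adjusted p under 0.05 was 0%, in the set (0 of 10) as over all 25997. At an unadjusted p under 0.05 there were 2 of 10 genes of the set, both higher, and 5.14% of all genes, 2.47% as higher and 2.67% as lower.

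The other members of the set had intervals that reached 0 in HFD d30 against control. Cd4 averaged 4.12 ± 0.76 in HFD d30 and 3.31 ± 0.55 in control, a difference of 0.81 (95% interval -0.02 to 1.63; limma, unadjusted p = 0.0546). Lat averaged 5.05 ± 0.68 in HFD d30 and 4.28 ± 0.71 in control, a difference of 0.76 (95% interval -0.01 to 1.54; limma, unadjusted p = 0.0534). The 2 kinases had differences of 0.77 (SE 0.54) for Zap70 and 0.32 (SE 0.64) for Lck. The CD3 chains had 0.41 (SE 0.64) for Cd3d, 0.22 (SE 0.56) for Cd3g, 0.05 (SE 0.67) for Cd3e and -0.37 (SE 1.37) for Cd247, whose interval ran from -3.28 to 2.55 and so leaves a wide range of sizes. In all, 9 of 10 genes had a higher mean in HFD d30 (7 with quantile normalization), where 50.3% of all tested genes did. The median difference was 0.59, against 0.0049 over all genes. The authors' deposited table gave 4 of the 10 as higher. All genes shifted there by -0.25, and 6 of the 10 lay above that shift. With quantile normalization the median was 0.22, against 0.027 over all genes. By mean signal the 10 genes lay between percentiles 72.6 (Cd247) and 95.2 (Thy1) of the tested genes, so most of the genes they are set against were dimmer. The groups overlapped for all 10 genes, and 0.604% of all genes had no overlap.

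HFD d30 was set against HFD d10 to ask what differed between both times on the diet. The largest differences were those of Cd5, Cd3e and Lat, and none passed. Cd5 averaged 3.01 ± 0.82 in HFD d30 and 1.99 ± 0.77 in HFD d10 (SD, n = 5 each), a difference of 1.03 (95% interval -0.24 to 2.29; limma, unadjusted p = 0.106, adjusted p = 0.9993). Lat averaged 5.05 ± 0.68 in HFD d30 and 4.33 ± 0.12 in HFD d10, a difference of 0.71 (95% interval -0.06 to 1.49; limma, unadjusted p = 0.0683). The differences were 0.73 (SE 0.67) for Cd3e, 0.44 for Cd4, 0.42 for Thy1, 0.29 for Zap70, 0.29 for Cd3g, 0.23 for Cd3d, -0.15 for Cd247 and -0.39 for Lck. With 8 of 10 genes higher in HFD d30 (5 with quantile normalization), where 53.1% of all tested genes were, the median was 0.36, against 0.06 over all genes. With quantile normalization the median was 0.061, against 0.006 over all genes. The authors' deposited table gave 4 of the 10 as higher, but all genes shifted there by -0.15 and 6 of the 10 lay above that shift. Of the set 0 of 10 genes, and of all genes 0%, had an adjusted p under 0.05 by limma. At an unadjusted p under 0.05 there were 0 of 10, and 4.1% of all genes. The arrays of both groups overlapped for all 10 genes, while 0.569% of all genes had no overlap. Comparisons that share the HFD d30 or the control arrays are not independent of each other.

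**Figure D2:**
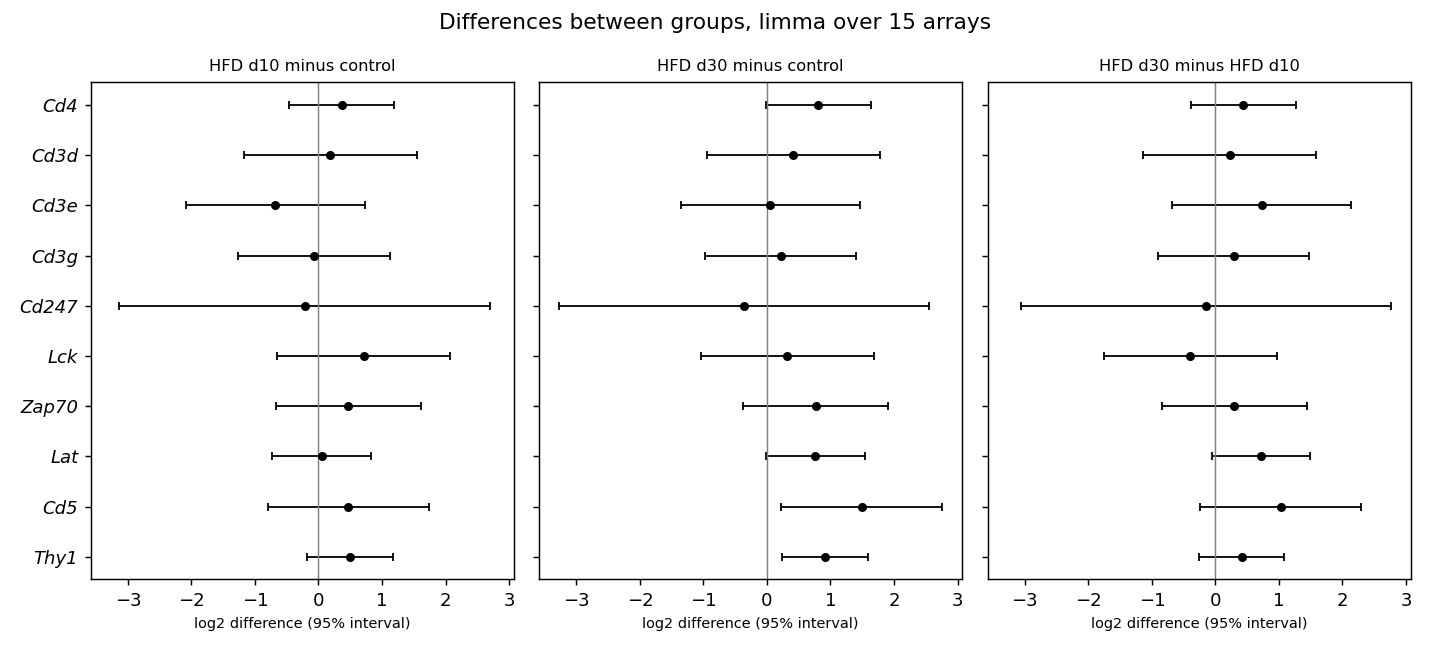
Difference in mean level (x axis, log2) of each gene (y axis) in the 3 comparisons, with points for the limma estimate over 15 arrays and bars for its 95% interval. Only Thy1 and Cd5 in HFD d30 minus control have intervals that leave out 0 before adjustment, and the bars of Cd247 are the widest.

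The probes of 3 genes could be set against each other. The 2 probes of Cd4 had opposite signs in all 3 comparisons. Its brighter probe, at the end of the transcript, had differences of 0.37 in HFD d10 minus control, 0.81 in HFD d30 minus control and 0.44 in HFD d30 minus HFD d10. The probe in the coding part, printed above, had -0.07, -0.38 and -0.31 in the same comparisons (SE 0.89 each). Its levels were 1.75, 1.09, 3.01, 1.58 and 3.77 in HFD d10, 2.76, 2.60, -1.85, 3.13 and 3.03 in HFD d30, and 1.10, 3.03, 3.68, 1.01 and 2.72 in control. HFD d30 replicate 3 was the lowest of 15 arrays by this probe and the highest by the other. The 10 spots of the coding probe on that array had a median processed signal of 39.3 and an SD of 0.260 on the log2 scale, against medians of 487 and more on the other arrays. Spots of the probe on an array agreed closely, with a median SD of 0.059 over the arrays, where the SD between arrays of a group was 1.55. Without HFD d30 replicate 3, the coding probe had a difference of 0.57 in HFD d30 minus control and the other probe 0.54. In HFD d30 minus HFD d10 they then had 0.64 and 0.18. For HFD d10 minus control the sign of the coding probe was the same as that of the other in 6 of 10 fits that left out an array.

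**Figure D3:**
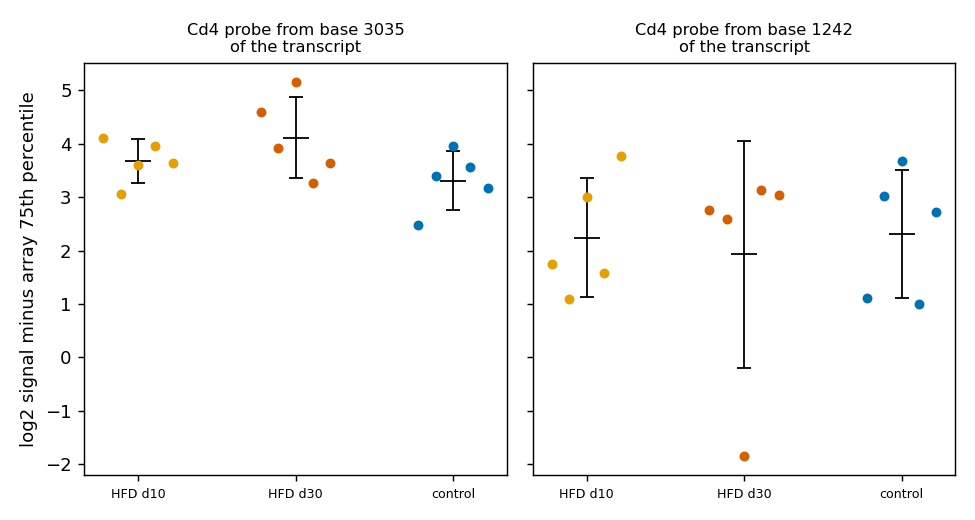
Levels of both Cd4 probes on every array (y axis, log2 signal minus the array's 75th percentile), by group (x axis), with group means and 1 SD (n = 5). The HFD d30 array at -1.85 by the coding probe is the array at 5.17 by the probe at the end of the transcript.

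The 2 probes of Zap70, from bases 1833 and 2060 of the transcript, both lay on chromosome 1 and were well above background on all arrays. They had differences of 0.47 and 0.36 in HFD d10 minus control, 0.77 and 0.27 in HFD d30 minus control, and 0.29 and -0.08 in HFD d30 minus HFD d10. The second Cd247 probe, from base 1996 of another transcript of the gene, was well above background on 1 HFD d10, 0 HFD d30 and 2 control arrays and was not tested. The values given for the zeta chain therefore come from the activation motif probe alone. The other 7 genes had a single probe, so no check of agreement was possible for them.

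Several of the genes moved together from array to array. Pearson's r of a gene with the mean of the other 9, over 15 arrays, was 0.80 for Lat, 0.76 for Cd3d, 0.76 for Cd4, 0.74 for Thy1, 0.73 for Cd5, 0.63 for Zap70, 0.58 for Cd3e and 0.56 for Cd3g. It was 0.19 for Lck and -0.01 for Cd247, lower than for each of the other 8 genes. All values of an array share its scaling, and the r are given as a description. Moving together was not particular to the set: with the mean of all 10 genes, Gm3201, outside the set, had r = 0.974 and members at most 0.834. The mean of the 10 genes, each centred on its own mean, was -0.06 ± 0.33 in HFD d10, 0.30 ± 0.42 in HFD d30 and -0.24 ± 0.97 in control (SD, n = 5). Control replicate 1 had the lowest mean, -1.78, with 0 of 10 genes above their own mean. Control replicate 3 had the highest, 0.88, with 9 of 10 genes above. The extremes of the 15 arrays were thus both controls, and HFD d30 replicate 3 followed at 0.77.

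The share of detected spots ran against this mean on the arrays at its ends. Control replicate 1 had the highest share, HFD d30 replicate 3 the lowest, and control replicate 3, at 50.9%, the fourth lowest. With the share as a covariate, 4 of 10 genes were higher in HFD d30 than in control, with a median difference of -0.36. Without control replicate 1 the median for HFD d30 minus control was 0.27, with 6 genes higher, and that for HFD d10 minus control was -0.10, with 5 higher. Without that array and HFD d30 replicate 3, the median for HFD d30 minus control was -0.04, Thy1 had 0.73 and Cd5 0.80. Without control replicate 3 the medians were 0.87 for HFD d30 and 0.54 for HFD d10 against control.

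**Figure D4:**
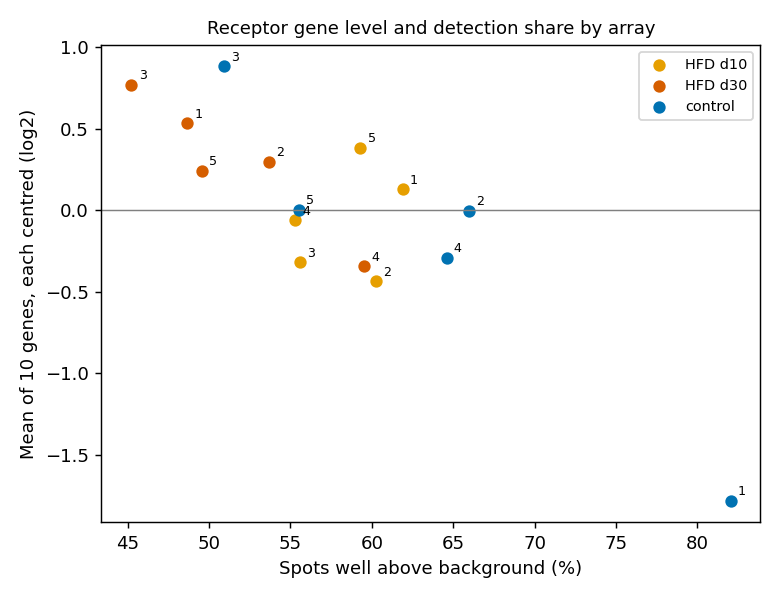
Mean of the 10 genes, each centred on its own mean over the arrays (y axis, log2), against the share of spots well above background (x axis, percent). Points are the 15 arrays, coloured by group and numbered by replicate. Control replicate 1 stands apart at 82.0% and -1.78, and 4 of 5 HFD d30 arrays lie above 0.

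Slide and group overlapped in part. With slide as a block, which compares HFD d30 with control through the HFD d10 arrays on both slides, neither Thy1 nor Cd5 had an unadjusted p under 0.05 by limma, and 7 of 10 genes were higher, with a median of 0.21. Within slide 1 the median for HFD d10 minus control was 0.10, with 7 genes higher. Within slide 2 the median for HFD d30 minus HFD d10 was 0.19, with 6 higher. In the authors' deposited table of log2 values, all genes had a median of -0.25 in HFD d30 minus control. The 10 genes had a median of -0.08 there, with 4 higher and 6 above the median of all genes. Thy1 had 0.09, Cd5 0.48, Lat -0.14 and Cd4 -0.02. That table lists no value for Lat on control replicate 3 or for Cd247 on HFD d30 replicate 3, so these fits dropped the array for that gene.

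**Figure D5:**
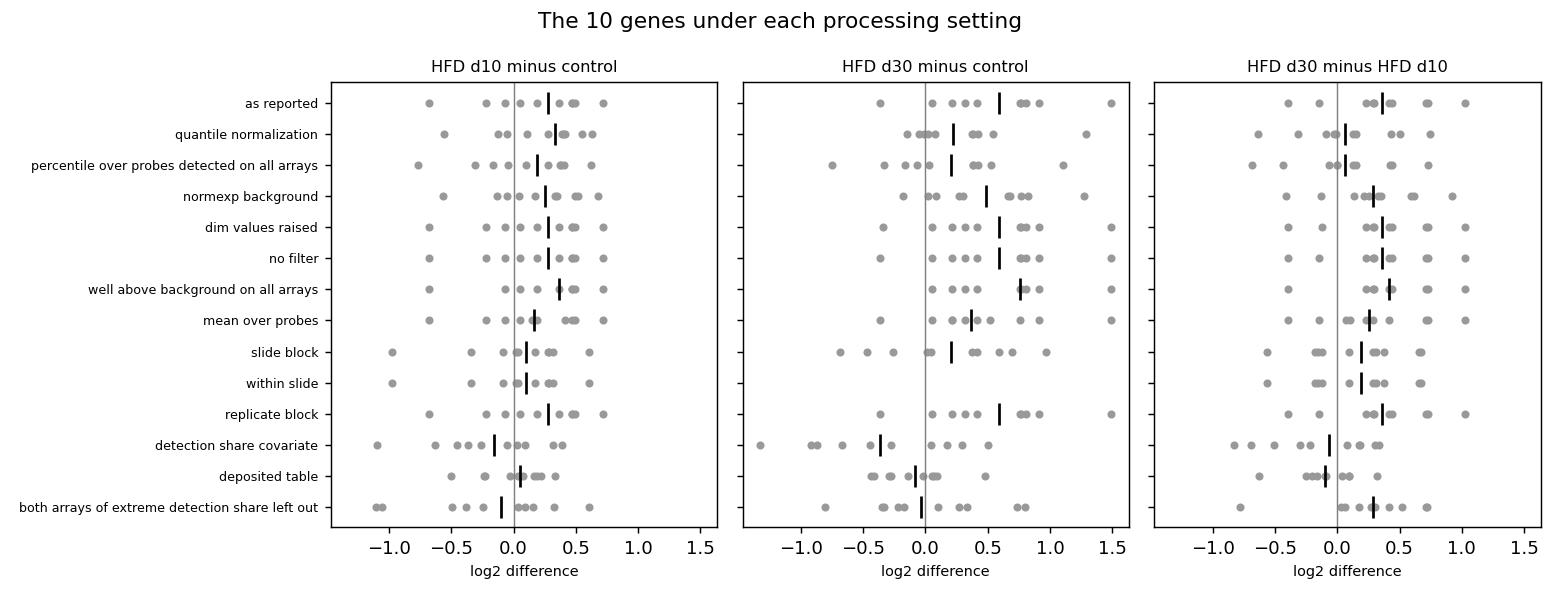
Differences of the 10 genes (x axis, log2) in the 3 comparisons under each processing setting (y axis), with points for genes and a bar for their median. In HFD d30 minus control the median is 0.59 as reported and negative, -0.36, -0.08 and -0.04, in the 3 lowest rows, while Thy1 and Cd5 stay above 0 in all.

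Other genes around the receptor, 69 tested of 74 listed, gave no call either. In HFD d10 minus control 43 were higher and 26 lower (median 0.21). In HFD d30 minus control 49 were higher and 20 lower (median 0.45), and in HFD d30 minus HFD d10 46 were higher and 23 lower (median 0.35). Over all tested genes 49.9%, 50.3% and 53.1% were higher in these comparisons. Limma called 0 of the 69 in each. At an unadjusted p under 0.05 there were 1 of 69 in HFD d10 minus control (2.59% of all genes), 4 in HFD d30 minus control (5.14% of all genes) and 4 in HFD d30 minus HFD d10 (4.1% of all genes), counts near those shares. By list in HFD d30 minus control, 5 of 6 other proximal kinases were higher, 12 of 17 other adaptors, 5 of 8 surface partners, 14 of 19 effectors downstream of Lat and 13 of 19 restraining factors. Their medians were 0.56, 0.77, 0.14, 0.45 and 0.66. The gene with the brightest probe in each list, a rank of probe signals and not of transcripts, was Fyn, a kinase related to LCK, at 4.63 ± 1.13 over 15 arrays, the adaptor gene Fyb at 5.86 ± 0.82, the tetraspanin gene Cd82 at 5.90 ± 0.69, the transcription factor gene Nfatc2 at 3.26 ± 1.15 and Dgka, a kinase that removes diacylglycerol, at 5.70 ± 0.90.

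The genes of smallest p among these were given by name. In HFD d30 minus control they were Vav1, an exchange factor recruited to the LAT complex, with 4.15 ± 0.86 in HFD d30 and 2.37 ± 1.49 in control, a difference of 1.78 (SE 0.65), and the adaptor gene Lax1, with 3.94 ± 0.83 in HFD d30 and 1.98 ± 1.73 in control, a difference of 1.96 (SE 0.72). The adaptor gene Sla2, which dampens receptor signals, had 0.70 (SE 0.31) and Nfatc2, a calcium-driven transcription factor, 1.35 (SE 0.63). In HFD d10 minus control they included the phosphatase gene Ptpn22 with 0.83 (SE 0.47), Pag1, which encodes an adaptor for the kinase CSK, with 2.26 (SE 1.39) and the ubiquitin ligase gene Itch with -1.41 (SE 1.05). Itch was well above background on 13 of 15 arrays and Pag1 on 7. In HFD d30 minus HFD d10 they were the adaptor gene Sh2d2a with 1.53 (SE 0.55), Itch with 2.82 (SE 1.05), the calcium channel gene Itpr3 with 2.01 (SE 0.89) and the phosphatase gene Ubash3b with -1.87 (SE 0.87). None of these 10 genes was called, as adjusted p by limma was 0.927 or more for each.

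The genes whose level followed the mean of the set most closely over the 15 arrays were Gm3201 (Pearson's r = 0.974), the array entries NAP114286-1 (0.972) and A_55_P1955827 (0.968), Gins3, of the DNA replication machinery (0.970), and Rpl21, of the ribosome (0.968). Members themselves had r between 0.343 and 0.834 with this mean, and 17.9% of the tested genes had an r above the lowest of them.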

How the data were processed

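Labelled cDNA of the 15 samples was hybridised to single-colour Agilent arrays after SuperAmp amplification, per the labels' protocols. The deposited scanner files hold intensity values from Feature Extraction 10.7.3.1 (protocol GE1_107_Sep09, build mm9), with background already subtracted and no scaling of arrays to each other, per the file headers. A second deposited table gives log2 values, and how the authors reached them is not given in the sources used here. No spot was saturated. Without outlier spots and 1 damaged line, 46 probe values were missing.

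The levels used here were log2 intensity minus the array's 75th percentile. Spots of a probe were averaged, and a gene was read from its probe of highest mean signal. Genes entered the test when this probe exceeded background clearly on 5 arrays or more, which kept 25997 genes and left out 8819. Group means were fitted with limma 3.58.1 under R 4.3.3 over the 15 arrays (lmFit, eBayes with intensity trend, two-sided), with Benjamini-Hochberg adjustment over all tested genes and a threshold of 0.05. Exact permutation tests used SciPy 1.17.1. The scripts were tested on simulated data. The number of arrays limits the precision.

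The set and all lists were chosen with earlier results of these data known. All its genes are named. Of the other pathway lists, the 4 genes of smallest p in each comparison and the brightest per list are named, except 1 gene that is not reported here. Of the marker lists, those are the 2 brightest and any gene well above background on 0 arrays; Cd8a is named besides. The 5 genes most like the set are named too. Called genes outside the lists were named after their values were seen. Alternatives were 12 settings, leaving out each of 15 arrays, and, chosen after seeing the data, leaving out both arrays of extreme detection share. Replicates with the same number did not deviate together, so they were not paired.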

Additional observations from a re-analysis of the deposited data

Results flagged for a closer look

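In 33 groups of 5 arrays, the highest and lowest array were set against Dixon's critical ratio of 0.71 for the gap to the nearest array over the whole range, which chance passes in about 1 of 20 groups. It was passed for 2 values, both of control arrays. For Cd3e, control replicate 1 had a level of -0.59, where the other 4 control arrays lay between 1.38 and 1.77 (ratio 0.835). This array also had the lowest mean of the 10 genes and the highest share of detected spots, and without it the Cd3e difference was -0.38 in HFD d30 minus control and -1.11 in HFD d10 minus control. For Lck, control replicate 3 had a level of 4.41, where the other 4 lay between 1.25 and 1.82 (ratio 0.819). Without it the Lck difference was 0.89 in HFD d30 minus control and 1.29 in HFD d10 minus control. The causes were not tested.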

How the results depend on the processing

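Over the 12 settings, the 15 fits that each left out an array and the fit without both arrays of extreme detection share, 827 values of the 30 differences (10 genes in 3 comparisons) were computed. None had an adjusted p under 0.05 by limma (0 called), 11 of the 30 differences never changed sign, and 88 values had the opposite sign, 23 of them in the fits that left out 1 array and 65 in the others. Thy1 and Cd5 in HFD d30 minus control were among those that kept their sign, from 0.09 to 1.09 and from 0.29 to 1.83. With quantile normalization the sign turned in HFD d10 minus control for Cd247 (0.39) and Lat (-0.055), in HFD d30 minus control for Cd3e (-0.054), Cd3g (-0.15), Cd247 (0.074) and Lck (-0.0075), in HFD d30 minus HFD d10 for Cd3d (-0.087), Cd3g (-0.023) and Zap70 (-0.0084). With the percentile taken over probes detected on all arrays the sign turned in HFD d10 minus control for Lat (-0.043), in HFD d30 minus control for Cd3e (-0.33), Cd3g (-0.17) and Lck (-0.064), in HFD d30 minus HFD d10 for Cd3d (-0.067) and Cd3g (-0.0053). With slide as a block the sign turned in HFD d10 minus control for Cd3d (-0.082) and Cd247 (0.31), in HFD d30 minus control for Cd3d (-0.26), Cd3e (-0.69), Cd3g (-0.47) and Cd247 (0.97), in HFD d30 minus HFD d10 for Cd3d (-0.18), Cd3g (-0.12), Cd247 (0.66) and Zap70 (-0.16). Within a slide the sign turned in HFD d10 minus control for Cd3d (-0.082) and Cd247 (0.31), in HFD d30 minus HFD d10 for Cd3d (-0.18), Cd3g (-0.12), Cd247 (0.66) and Zap70 (-0.16). With the detection share as a covariate the sign turned in HFD d10 minus control for Cd3d (-0.36), Lat (-0.26) and Cd5 (-0.049), in HFD d30 minus control for Cd3d (-0.87), Cd3e (-0.92), Cd3g (-0.67), Lck (-0.45) and Zap70 (-0.28), in HFD d30 minus HFD d10 for Cd3d (-0.50), Cd3g (-0.22) and Zap70 (-0.30). In the authors' deposited table the sign turned in HFD d10 minus control for Cd3d (-0.027), Cd247 (0.036) and Lat (-0.23), in HFD d30 minus control for Cd4 (-0.022), Cd3d (-0.28), Cd3e (-0.41), Cd3g (-0.44), Cd247 (0.073), Lck (-0.30) and Lat (-0.14), in HFD d30 minus HFD d10 for Cd4 (-0.094), Cd3d (-0.25), Cd3g (-0.20), Cd247 (0.037), Zap70 (-0.16) and Thy1 (-0.096). Without control replicate 1 and HFD d30 replicate 3 the sign turned in HFD d10 minus control for Cd3d (-0.39) and Lat (-0.25), in HFD d30 minus control for Cd3d (-0.35), Cd3e (-0.80), Cd3g (-0.22) and Lck (-0.18), in HFD d30 minus HFD d10 for Cd247 (0.72). Leaving out 1 array at a time, the sign turned in HFD d10 minus control for Cd3d (-0.39 to 0.57), Cd3g (-0.50 to 0.25), Cd247 (-1.06 to 0.88) and Lat (-0.25 to 0.19), in HFD d30 minus control for Cd3d (-0.16 to 0.80), Cd3e (-0.38 to 0.48), Cd3g (-0.21 to 0.58), Cd247 (-1.20 to 0.50) and Lck (-0.069 to 0.89), in HFD d30 minus HFD d10 for Cd3d (-0.15 to 0.48), Cd3g (-0.015 to 0.65) and Cd247 (-1.24 to 0.72). The median of the 10 genes in HFD d30 minus control moved to -0.36 with the detection share as a covariate and to -0.081 in the authors' deposited table. That in HFD d10 minus control was -0.15 with the covariate and 0.054 in that table, and that in HFD d30 minus HFD d10 -0.069 and -0.095. Against 0 genes called as reported, HFD d30 minus control had 1 with slide as a block (Vkorc1l1), and leaving out single arrays gave 0 to 2 in HFD d30 minus control and in HFD d30 minus HFD d10 (Suclg2 and As3mt, without HFD d10 replicate 4) and 0 to 1 in HFD d10 minus control (Olfr1201, without HFD d30 replicate 4), all lower and none well above background on all arrays. The percentile over detected probes moves every gene of a comparison by a constant, so the signs that turned there follow from the scaling, and 7, 9 and 8 of the 10 genes lay above the median of all genes, the same counts as reported. All genes shifted by -0.38 in HFD d30 minus control and -0.24 in HFD d30 minus HFD d10 with the percentile over detected probes, by -0.10, -0.25 and -0.15 in the 3 comparisons of the deposited table, and by 0.11 with normexp in HFD d30 minus HFD d10. The replicate numbers did not pair the samples: of 15 pairs with the same number, 1 had a correlation of deviations over 0.1 (range -0.13 to 0.15). With the number as a replicate block, 3 of the 10 genes instead of 2 had an unadjusted p under 0.05 in HFD d30 minus control, 0 were called, and the medians stayed at 0.28, 0.59 and 0.36. The fit within a slide gave no value for HFD d30 minus control, since no slide held both groups, and the filter for detection on all arrays gave none for Cd247. The causes of these changes were not tested. The probe of Cd247 was not well above background on 1 array, and raising dim values left its difference in HFD d30 minus control at -0.34.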
